A study of Homo sapiens with 5 samples.

Results

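The regions described here are the peaks of THP-1 replicate 1 that lay on contigs outside chromosomes 1 to 22, X, Y and the mitochondrial genome. They were chosen by the sequence name in the first column of the deposited peak list, with no use of their width, enrichment or significance. They numbered 245 of the 1282 peaks in that list (19.1%, exact 95% interval 16.99 to 21.4, counting error only), on 56 contigs, and 245 of 3554 peaks in the whole series. FOXO3A, a forkhead transcription factor, was mapped by CUT&Tag, in which an antibody brings the Tn5 transposase to chromatin so that DNA nearby is cut and tagged. The series holds 3 libraries of THP-1 and 2 of U-937, both established human monocytic lines that the labels class as acute myeloid leukemia cells. All 5 libraries were made with the same FOXO3A antibody, and the labels name no treatment and no genetic change.

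The human reference genome contains sequences that could not be put in their place on a chromosome. An unlocalised contig is known to belong to a given chromosome, and for an unplaced contig not even the chromosome is known. Such contigs are rich in repeated sequence, for example the satellite arrays of centromeres and of the short arms of acrocentric chromosomes, and the arrays of ribosomal RNA genes. Sequence with near-identical copies elsewhere can receive reads from all of those copies, so a peak on such a contig need not come from that copy alone. Reads may have been shared in this way for any contig peak reported below, and this was not tested. No contig sequence was used here, so the repeats in these peaks were not identified.

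Only THP-1 replicate 1 had contig peaks. The list of U-937 replicate 1 had 2272 peaks, all on chromosomes, and the other 3 lists (THP-1 replicate 2, THP-1 replicate 3 and U-937 replicate 2) were empty. No source used here says whether contigs were searched in U-937 replicate 1, and its 0 contig peaks were therefore not compared with the 245 of THP-1. The peak names inside the list of THP-1 replicate 1 begin with a prefix that is not that library's title, and the list was taken as THP-1 replicate 1 because it is deposited under that sample. Every value below comes from 1 library, with no replicate check. Peaks of 1 library are not replicates of a condition, and differences between peak sets are given as descriptions without a test. Read depth is unknown.

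The contig names did not state a class, and class and parent chromosome were assigned from the known make-up of the GRCh38 assembly. All 56 contigs were of the primary assembly. Unplaced contigs numbered 37 and held 118 peaks, and unlocalised contigs numbered 19 and held 127. Alternate and fix contigs, which carry other versions of regions already on a chromosome, numbered 0 each. The set thus has no peaks on alternative versions of assembled regions.

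Contig peaks were unevenly spread. The 3 contigs with the most peaks held 92 of 245 (37.6%), the 10 with the most held 165 (67.3%), and 32 contigs had exactly 1 peak. GL000225.1, an unlocalised contig of chromosome 14, led with 38 peaks. KI270736.1 of chromosome 22 followed with 28, the unplaced GL000216.2 with 26 and KI270729.1 of chromosome 17 with 15. The unplaced KI270442.1 had 13 and KI270756.1 had 11, while KI270730.1 of chromosome 17 and KI270733.1 of chromosome 22 had 10 each. GL000220.1, unplaced, had 8 and KI270737.1 of chromosome 22 had 6, the latter ranked by its median fold among contigs with the same count.

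**Figure D1:**
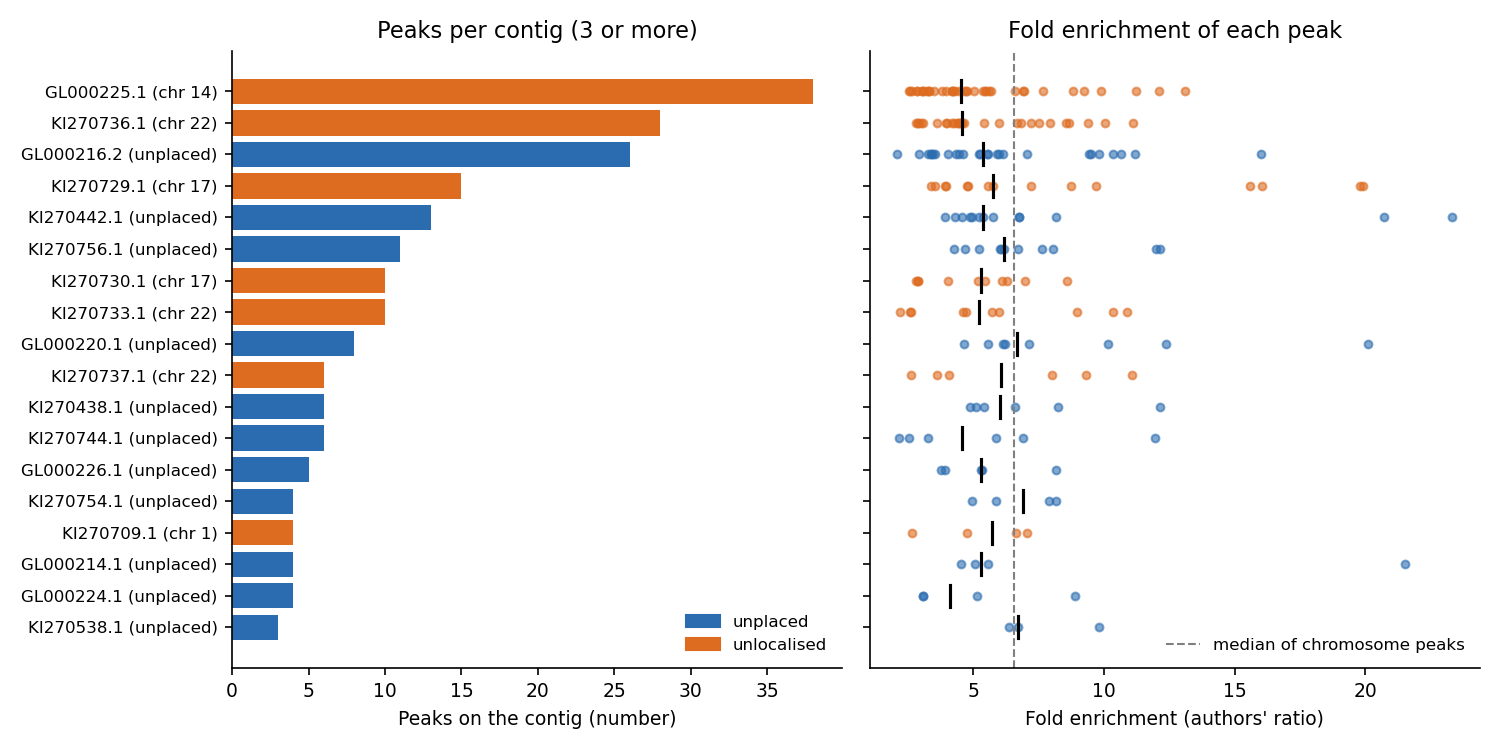
Left, number of peaks on each contig with at least 3, coloured by class. Right, fold enrichment (the authors' linear ratio) of every peak on these contigs, with black lines for the contig medians and a dashed line for the median of chromosome peaks, 6.57; all 8 contigs with 10 or more peaks have a median below that line.

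Peaks on the richest contigs lay close together, but not over the whole contig. On GL000225.1, 36 of the 38 peaks lay up to position 137948, and the other 2 followed a stretch of 54833 bp without a peak. On KI270736.1, 2 peaks lay within the first 2364 bp and the other 26 from position 48407 to 181724. KI270729.1 had 12 of its 15 peaks up to position 59307 and 3 beyond a gap of 127137 bp. On KI270442.1, 12 of 13 lay up to position 201163. The share of sequence between the first and the last peak that peaks covered was 11.9% on GL000225.1, 13.3% on KI270736.1, 16.3% on GL000216.2 and 2.65% on KI270442.1.

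Over all contigs the median gap between neighbouring peaks was 3845 bp (quartiles 1265 and 7111, 189 gaps). Another peak lay within 10 kb of 79.2% of the 245 contig peaks and of 37.6% of the 1037 chromosome peaks. Contigs are short, which limits how far apart 2 peaks of a contig can lie, and its part in this difference was not tested.

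The contig peaks were wider and more significant than chromosome peaks, at a lower fold enrichment. Their median width was 645 bp (quartiles 388 and 1061, range 264 to 4132), against 475 bp on chromosomes (340 and 781, range 262 to 5162). The median -log10 q was 20.8 (quartiles 9.91 and 61.2), against 13.3 (6.0 and 37.4). Median fold enrichment, the authors' ratio to an unnamed background, was 5.74 (quartiles 4.35 and 8.99), against 6.57 (4.98 and 9.95). The distributions overlapped over most of their range in all 3 measures.

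The same contrast appeared at fixed limits. A width of at least 1000 bp was reached by 66 contig peaks (26.9%), against 15.3% of chromosome peaks. A -log10 q of at least 5 was reached by 219 (89.4%), against a background of 81.2%, and a -log10 q of at least 100 by 39 (15.9%), against 12.2%. A fold of at least 10 was reached by 46 (18.8%), fewer than the 25.0% on chromosomes. Of the 245 contig peaks, 160 (65.3%, exact 95% interval 59.0 to 71.3) were wider than the chromosome median, 157 (64.1%, 57.7 to 70.1) were above its -log10 q and 103 (42.0%, 35.8 to 48.5) were above its fold. These intervals cover counting error only.

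The comparison changed when chromosome peaks were split by whether another peak lay within 10 kb. The 390 chromosome peaks with such a neighbour had a median width of 683 bp, a median fold of 5.99 and a median -log10 q of 23.8. Of all 245 contig peaks, with and without a neighbour, 47.8% (41.4 to 54.2) were wider than that median, 47.8% (41.4 to 54.2) had a higher -log10 q and 46.1% (39.8 to 52.6) had a higher fold. The 647 chromosome peaks without such a neighbour were narrower, with a median width of 406 bp, a median fold of 7.11 and a median -log10 q of 9.42. Split in the same way, the contig peaks with a neighbour had a median width of 631 bp, a median fold of 5.35 and a median -log10 q of 20.3, each below the median of clustered chromosome peaks. The 51 contig peaks without a neighbour had medians of 788 bp, 9.81 and 30.9, each above those of isolated chromosome peaks. These 51 include the sole peaks of 32 contigs, and in 19 of those contigs the peak ended before position 5000. The end of a peak is not the length of its contig, so these 19 contigs need not be short. A short contig leaves little room for a neighbour, so its absence does not mean the same as on a chromosome. The part of contig length in this contrast was not tested.

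**Figure D2:**
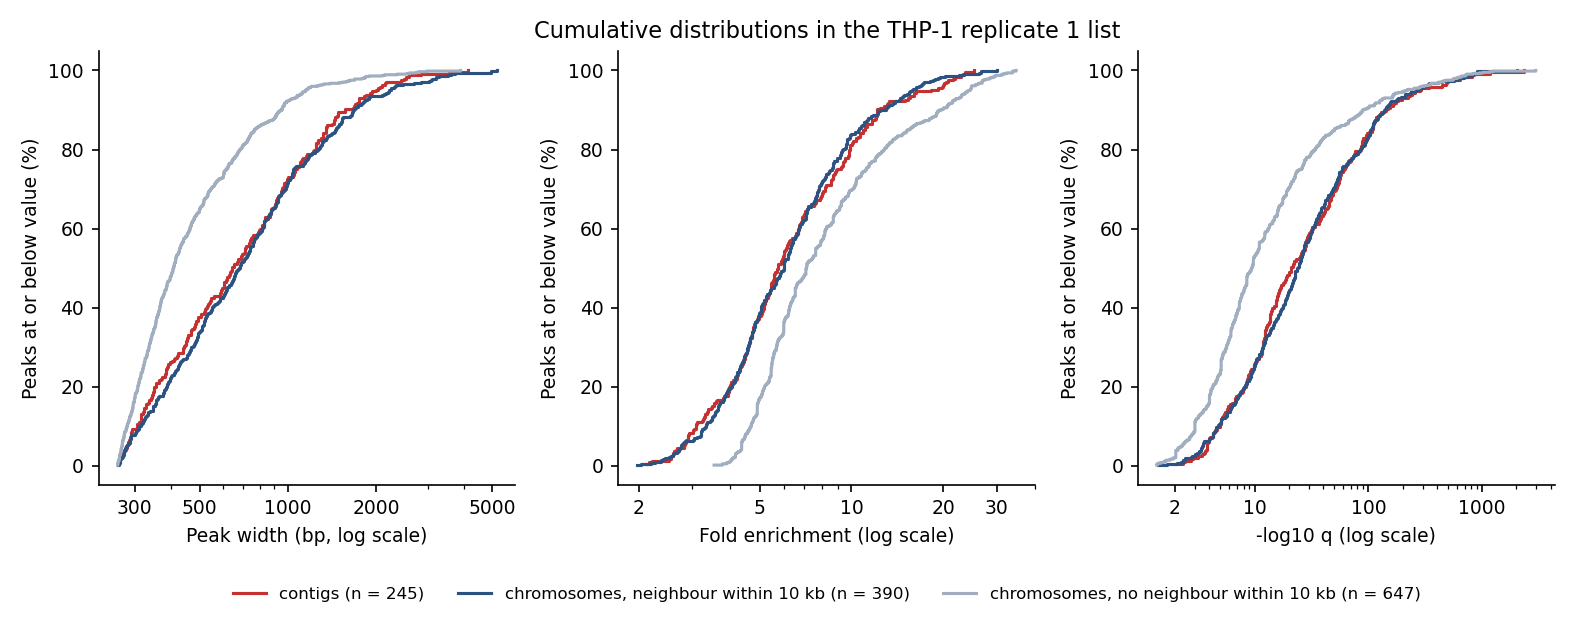
Cumulative percentage of peaks at or below each width, fold enrichment and -log10 q (log axes) for contig peaks (245), chromosome peaks with another peak within 10 kb (390) and those without (647). The first and second curves run close together, and the third is shifted to narrower, higher-fold and less significant peaks.

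At a similar significance the contig peaks had the lower median fold, in each of 6 ranges of -log10 q. Between -log10 q of 10 and 20, 57 contig peaks had a median fold of 5.30 and 184 chromosome peaks one of 8.25. From 20 to 50 the medians were 6.07 (50 peaks) and 9.64 (198 peaks), from 50 to 100 they were 8.82 (36 peaks) and 10.6 (88 peaks), and from 100 upward 11.96 (39 peaks) and 16.8 (126 peaks). Clustered chromosome peaks had medians of 6.01, 6.80, 6.73 and 9.83 in these ranges. The contig median thus lay below that of clustered chromosome peaks in the lower 2 of these 4 ranges and above it in the upper 2. Across contig peaks, fold and width had a Spearman rank correlation of 0.38 (n = 245), against 0.14 across chromosome peaks (n = 1037). All points come from the same library, and neighbouring peaks share a contig.

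**Figure D3:**
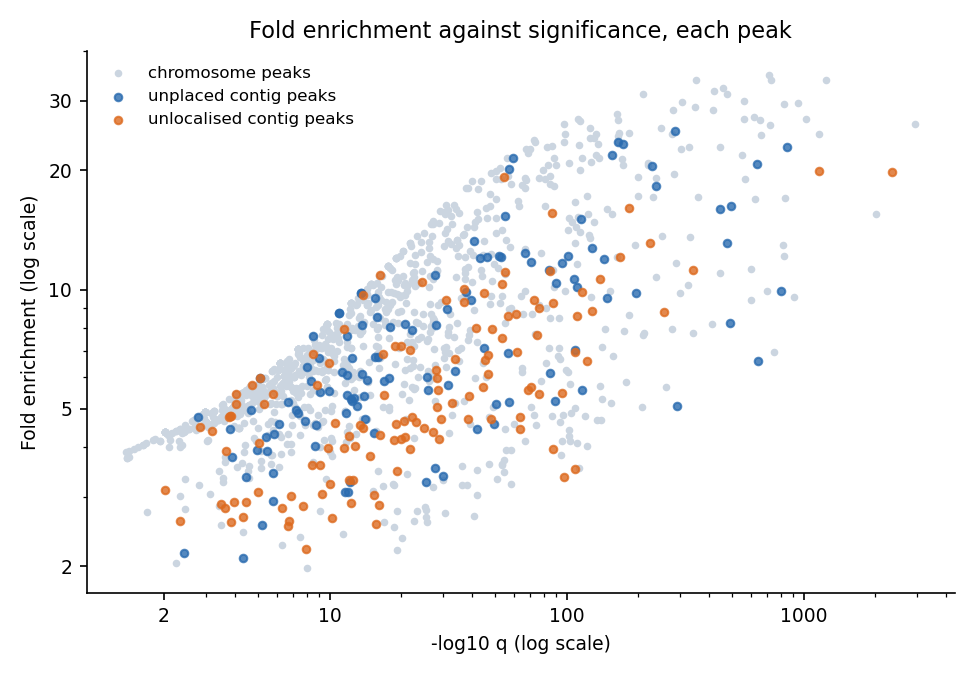
Fold enrichment against -log10 q (both log axes), 1 point per peak, for unplaced contigs, unlocalised contigs and chromosomes. Contig points are spread over the range of the chromosome points, mostly below their upper edge; 28 chromosome peaks have a higher fold than the strongest contig peak, at 25.2.

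Contigs with a single peak differed from those with many. The 32 single peaks had a median fold of 11.3 (range 4.45 to 25.2), a median width of 944.5 bp and a median -log10 q of 49.4, and 25 of them had a fold above the chromosome median. The 62 peaks on contigs with 2 to 9 peaks had a median fold of 6.18 and a median -log10 q of 13.6. On the 8 contigs with 10 or more, 151 peaks had a median fold of 5.23 (range 2.10 to 23.3), a median width of 645 bp and a median -log10 q of 20.7. Of those 8 contigs, 0 had a median fold above that of chromosome peaks, whereas 6 had a higher median -log10 q and 7 a higher median width. Contig lengths were not used here. In 19 contigs the last peak ended before position 5000, and each of these held a single peak. A contig can run on far past its last peak, so these 19 need not be short. A short contig limits both the number and the width of its peaks, and its part in this contrast was not tested.

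By class, unplaced contigs had the higher values. Their 118 peaks had a median fold of 6.49, a median width of 717.5 bp and a median -log10 q of 21.5. The 127 unlocalised peaks had medians of 5.13, 596 bp and 20.7. A fold of at least 10 was reached by 31 unplaced peaks (26.3%) and 15 unlocalised peaks (11.8%). Of the 32 single-peak contigs 24 were unplaced, so class and number of peaks per contig move together, and their parts in this contrast were not tested.

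The strongest contig peaks by fold lay mainly on unplaced contigs. KI270310.1 at 270 to 1106 had the highest fold, 25.2 (-log10 q 287), and was that contig's sole peak, as were the peaks on KI270303.1 at 251 to 1723 (fold 23.6), KI270337.1 at 10 to 1102 (22.9), KI270304.1 at 557 to 1915 (21.8) and KI270435.1 at 91879 to 92939 (20.5). KI270442.1 had 2 of the 10 strongest, at 4 to 351 (fold 23.3), from the contig's very start, and at 91338 to 93082 (20.7). Its other 11 peaks had folds of 8.16 or less. The remaining 3 lay on GL000214.1 at 64349 to 65317 (fold 21.5), on GL000220.1 at 101825 to 102280 (20.1) and on KI270729.1 at 27480 to 28040 (19.9). On GL000214.1 the other 3 peaks had folds between 4.54 and 5.55. Of the 100 peaks with the highest fold in the whole list, 12 were on contigs, against a share of 19.1% over all peaks of the list. In all, 28 chromosome peaks had a higher fold than the strongest contig peak.

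Significance and width ranked other peaks first. KI270729.1 at 2631 to 4453 had a -log10 q of 2350, the second highest in the whole list, with a fold of 19.8, and the peak of the same contig at 27480 to 28040 had a -log10 q of 1161. KI270337.1 at 10 to 1102 followed with 852, KI270467.1 at 1205 to 3798 with 806 (fold 9.91) and KI270438.1 at 109098 to 110769 with 644 (fold 6.60). The last 2 had a high significance without reaching a fold of 10. Of the 100 peaks with the highest -log10 q in the list, 23 were on contigs, and of the 100 widest, 26. Contig peaks were 19.1% of all peaks in the list.

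The 5 widest contig peaks were on GL000216.2 at 12747 to 16878 (4132 bp, fold 4.59), GL000008.2 of chromosome 4 at 257 to 3819 (3563 bp, fold 4.70), GL000216.2 at 25121 to 27979 (2859 bp, fold 7.04), KI270467.1 (2594 bp) and KI270333.1 at 53 to 2576 (2524 bp, fold 13.1). None of the 4 widest reached a fold of 10. The 3 weakest by -log10 q were on GL000225.1 at 192782 to 193069 (2.03, fold 3.12), KI270737.1 at 34649 to 35036 (2.33, fold 2.61) and KI270744.1 at 108277 to 108540 (2.43, fold 2.16). In 16 contigs a peak began within the first 500 bp, and for 12 of these it was the only peak.

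Parent chromosomes could be given for the 127 unlocalised peaks. Chromosome 22 had 47 on 5 contigs, chromosome 14 had 41 on 4, chromosome 17 had 25 on 2 and chromosome 1 had 7 on 3. Chromosomes 5, 9 and 16 had 2 each and chromosome 4 had 1. Chromosomes 14 and 22 carried more peaks on their unlocalised contigs than on the assembled chromosome, with 41 against 12 and 47 against 24. On chromosome 17 the numbers were 25 against 82, and on chromosome 1 they were 7 against 79. Of the 41 peaks of chromosome 14, GL000225.1 held 38, and KI270736.1 held 28 of the 47 of chromosome 22, so both counts rest largely on 1 contig.

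**Figure D4:**
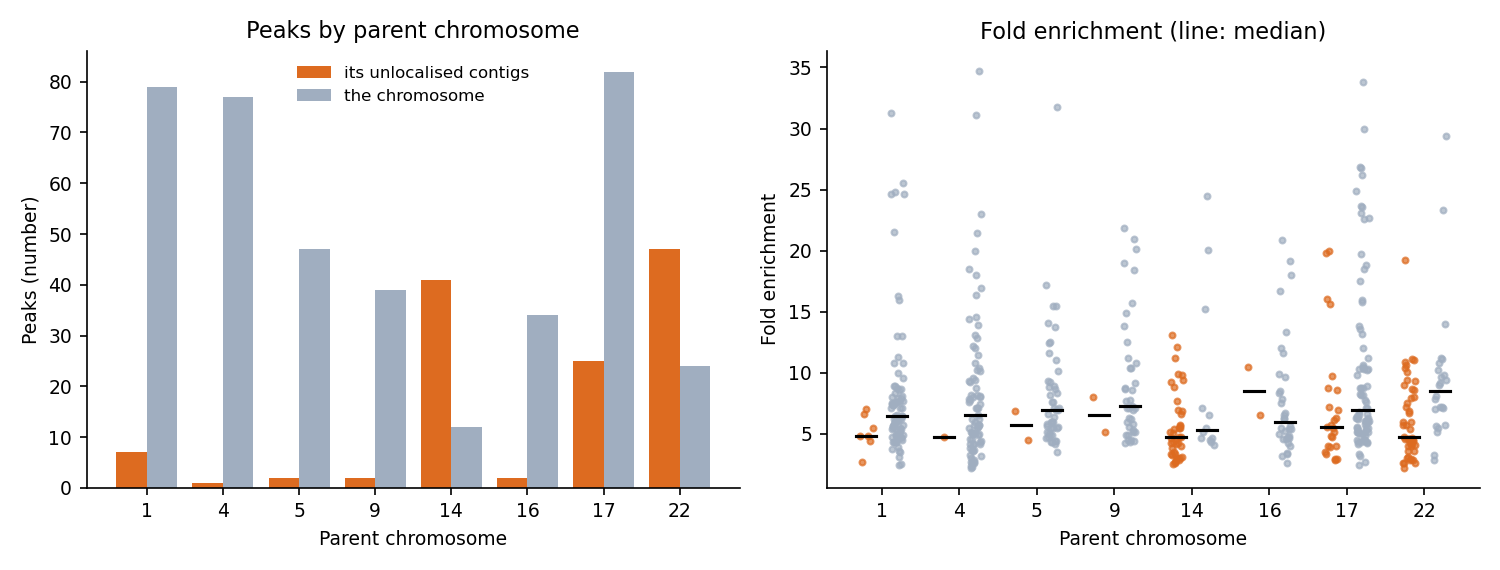
Left, number of peaks on the unlocalised contigs of each parent chromosome and on the chromosome itself. Right, fold enrichment of each of these peaks with lines for medians; the contig median is lower for chromosomes 1, 4, 5, 9, 14, 17 and 22 and higher for chromosome 16, which has 2 contig peaks.

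Median fold on the contigs was 4.72 against 8.53 on chromosome 22 itself, 4.72 against 5.33 for chromosome 14, 5.57 against 6.94 for chromosome 17 and 4.78 against 6.42 for chromosome 1. The median -log10 q was higher on the contigs for chromosome 14 (28.3 against 6.46) and chromosome 17 (28.8 against 15.1), similar for chromosome 22 (19.0 against 19.4) and lower for chromosome 1 (5.78 against 11.9). A lower fold was thus common to these 4 parents, and a higher significance was not. The strongest peaks by parent were on KI270709.1 at 13509 to 14303 for chromosome 1 (fold 7.06), GL000225.1 at 25441 to 26540 for chromosome 14 (13.1), KI270729.1 at 27480 to 28040 for chromosome 17 (19.9) and KI270734.1 at 121386 to 121780 for chromosome 22 (19.2).

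Both contigs that carry ribosomal RNA genes had peaks. The 45S gene is transcribed by RNA polymerase I into a precursor that is cut into the 18S, 5.8S and 28S ribosomal RNAs, and copies of it repeat in tandem, separated by long intergenic spacers. The RefSeq gene table lists RNA45SN5 at 105424 to 118780 on a sequence without a chromosome and RNA45SN4 at 122273 to 135645 under chromosome 22. The table does not name their contigs, which are GL000220.1 and KI270733.1 from knowledge of the assembly. RNA45SN1, RNA45SN2 and RNA45SN3 are on assembled chromosome 21. In all 5 the 18S, 5.8S and 28S parts follow in ascending coordinates, so positions can be given from the start of each 45S gene. Near-identical copies can share reads, so peaks of the 5 copies cannot be taken as independent. Whether they shared reads was not tested.

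The 8 peaks of GL000220.1 lay outside RNA45SN5, its annotated 45S gene. The first, at 101825 to 102280 (fold 20.1), was before the gene, and the other 7 were in the spacer after it. Nearest to the gene was a peak at 119296 to 120610 (fold 12.4), starting 516 bp past its end. The next, at 127722 to 128063 (6.13) and 128333 to 128621 (4.66), lay 8942 bp or more past the end. Further peaks were at 138187 to 138900 (7.14), 141931 to 142396 (10.1), 144698 to 145326 (6.23) and 145826 to 146189 (5.57). The gene table also lists RNA18SP3, a pseudogene copy of the 18S part, at 153050 to 154918 on a sequence without a chromosome. If that sequence is GL000220.1, these 7 peaks lie between RNA45SN5 and a second copy. The last of them may then belong before that copy, and their positions relative to it were not measured.

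On KI270733.1, 7 of the 10 peaks lay between 5 kb before and 42 kb after the start of RNA45SN4. A peak at 124178 to 124448 (fold 5.74, -log10 q 4.69) was the only one inside the gene, in the part before the 18S sequence. The others were at 119053 to 119368 (5.99), before the gene, and after it at 135723 to 136477 (2.60), 138260 to 138902 (4.72), 139302 to 139846 (2.60), 145558 to 146776 (2.21) and 158516 to 158980 (8.99). The remaining 3 lay around a second, pseudogene copy of the 18S and 5.8S parts. The peaks at 168016 to 168351 (fold 10.3) and 168747 to 169090 (4.60) began 2996 and 2265 bp before RNA18SP4, and the peak at 175108 to 175392 (10.9) began 997 bp past RNA5-8SP9. In RNA45SN4 the 45S gene starts 3658 bp before its 18S part. Counted from the same distance before RNA18SP4, a measure chosen after the peak positions were seen, these 3 peaks lay at 662 to 997, 1393 to 1736 and 7754 to 8038 bp. These positions are inside the transcribed stretch of RNA45SN4, whose 28S part starts at 7931 bp. Whether the second copy has that layout was not tested.

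Several positions recurred between copies. Between about 22 and 25 kb from the gene start, a range drawn after the positions were seen, all 5 copies had a peak. On chromosome 21 these were at 23042 to 23855 bp (RNA45SN1, fold 6.79), 22530 to 23837 bp (RNA45SN2, 8.47) and 22355 to 23009 bp (RNA45SN3, 6.35). The peaks of GL000220.1 there were at 22298 to 22639 and 22909 to 23197 bp, and that of KI270733.1 was at 23285 to 24503 bp. This RNA45SN2 peak overlapped a peak of each other copy. The KI270733.1 peak overlapped peaks of RNA45SN1 and RNA45SN2 only. A peak just past the gene's end was found at 3 copies, at 13872 to 15186 bp on GL000220.1, 13450 to 14204 bp on KI270733.1 and 13654 to 14929 bp at RNA45SN2 (fold 16.6). Both contigs also had overlapping positions before the gene, at -3599 to -3144 and -3220 to -2905 bp, and far into the spacer, at 36507 to 36972 and 36243 to 36707 bp. The chromosome 21 copies had 0 peaks at these last 2 positions. RNA45SN1 and RNA45SN3, but not RNA45SN2, had peaks at 30913 to 31750 and 30736 to 31794 bp, where neither contig had one. Other positions were shared between KI270733.1 and chromosome 21. Its peak at 15987 to 16629 bp overlapped that of RNA45SN3 at 16375 to 16885 bp (fold 26.6). Its peak at 23285 to 24503 bp also overlapped that of RNA45SN2 at 24305 to 24837 bp (4.76).

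**Figure D5:**
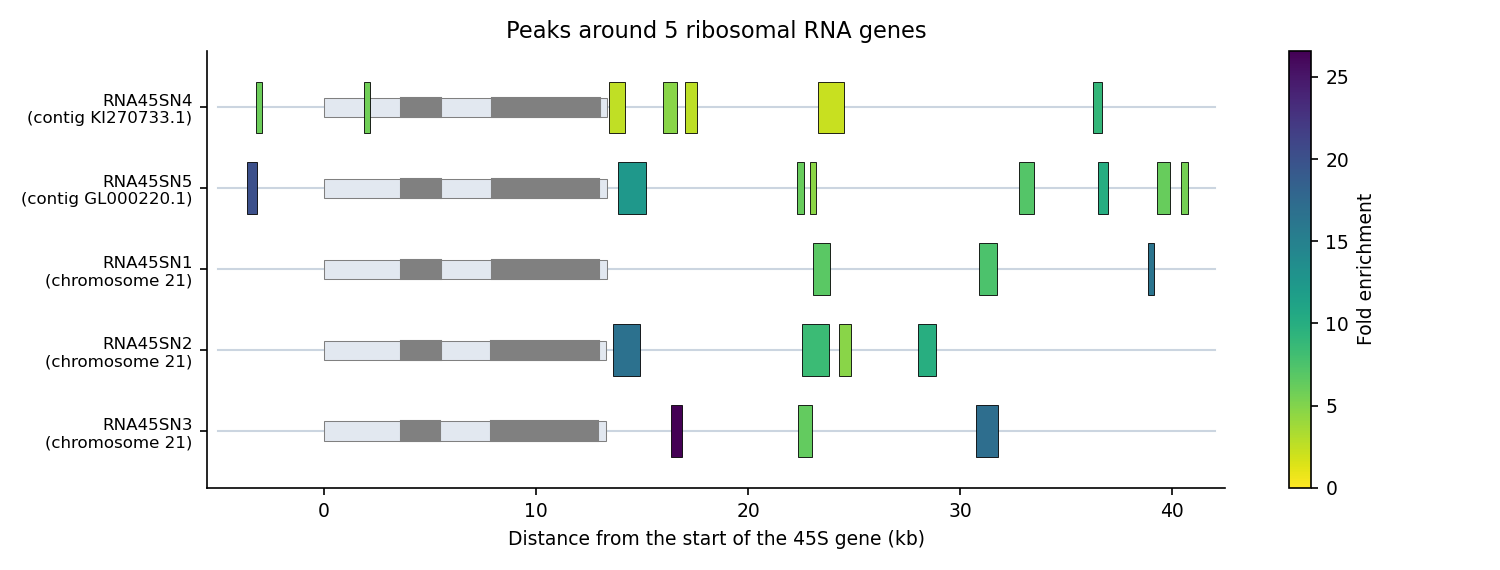
Peaks (coloured by fold enrichment) from 5 kb before to 42 kb after the start of the 45S gene at RNA45SN4 and RNA45SN5 on contigs and RNA45SN1, RNA45SN2 and RNA45SN3 on chromosome 21; pale boxes are the 45S genes and grey boxes the 18S and 28S parts. Of 25 peaks, 1 overlaps a 45S gene, and these genes are 13309 to 13373 bp long. The 3 peaks at the second, pseudogene copy on KI270733.1 are outside the window.

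Over the 5 annotated copies, 1 of 25 peaks in this window overlapped a 45S gene, 2 lay before it and 22 in the spacer after it. The genes are 13309 to 13373 bp long, in windows from 5 kb before to 42 kb after their start. Most of each window thus lies after the gene, and the 25 peaks may not be independent. Positions were counted from these 5 genes alone, so a spacer peak may also lie before a further copy. The 3 peaks at the second copy on KI270733.1 are outside these windows and are not in this count; by the layout of RNA45SN4, all 3 would lie in the transcribed part. Median folds were 6.69 over the 8 peaks of GL000220.1, 4.72 over the 7 of KI270733.1, and 7.57, 9.19 and 17.1 at RNA45SN1, RNA45SN2 and RNA45SN3. U-937 replicate 1 had 0 peaks in the windows of the 3 chromosome 21 copies. These windows are a very small part of the genome over which its 2272 peaks were spread. This 0 was therefore not compared with the THP-1 peaks there. Without GL000220.1 and KI270733.1, the 227 other contig peaks had a median width of 677 bp, a median fold of 5.68 and a median -log10 q of 20.8, close to those of all 245.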

How the data were processed

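CUT&Tag peak lists of 5 libraries were used. The build was hg38 and the tools included Bowtie2 and Picard, per the submitters' processing notes. The sources used here do not name the peak caller, its settings, its background or the depth. The authors deposited 1 list per library without a header, read here as narrowPeak: start, end, summit, an integer score (in 1281 of the 1282 THP-1 peaks this was -log10 q times 10, with decimals dropped), fold enrichment (a linear ratio), and the p-value and q-value of each peak as -log10. The THP-1 list was split by sequence name, and coordinates count from 1. Class and parent of each contig came from knowledge of the assembly, and gene positions from the RefSeq table for GRCh38.p14. No genome was used, so the planned GC and motif counts were not made. Named peaks followed a rule: the 10 contigs with most peaks, the 10 highest folds, the 5 widest, the strongest by class and by parent with at least 5 peaks, and the 3 weakest; the 5 most significant and the ribosomal RNA peaks were added after values were seen. The members and lists were chosen with earlier results of these data known. Intervals are exact (Clopper-Pearson, 95%) from SciPy 1.17.1, and pandas 2.3.3 was used. Grouping, merging and neighbour steps were tested on simulated data.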

Additional observations from a re-analysis of the deposited data

How the results depend on the processing

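The share of THP-1 peaks on contigs was 16.6% without GL000225.1, the contig with the most peaks, and between 17.4% and 20.6% under the other alternatives. The share of contig peaks wider than the chromosome median was 73.2% with each contig counted once by its median and 71.7% with peaks within 1000 bp merged. With clustered chromosome peaks as the comparison it was 47.8%, and the share above in -log10 q was 47.8%, both on the other side of 50 from the values against all chromosome peaks. The share above the median fold was 57.1% with each contig counted once, also on the other side, since the 32 contigs with 1 peak then outnumber the others. Requiring a -log10 q of at least 5, or leaving out chromosome Y, left these shares within the interval of the main value. Leaving out THP-1 replicate 2 or 3, which have no peaks, gave 19.1%, 65.3%, 64.1% and 42.0% again, and without replicate 1 no peak is left. No paired analysis was possible because each line had 1 library with peaks and no result comes from a test over replicates.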

Other observations

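In the list, 64 pairs of fold and -log10 p were each held by more than 1 peak, and 9 of these pairs included a contig peak, 12 contig peaks in all. Most of the 64 pairs were thus held by chromosome peaks only. Contig peaks were 245 of the 1282 peaks in the list (19.1%). KI270317.1 and KI270395.1, for example, each had a peak of fold 8.72 and -log10 q 11.0.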
